A study of Homo sapiens with 14 samples.

Results

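HepG2 cells transfected with miR-124 were followed over time on 7 arrays, taken at 4, 8, 16, 24, 32, 72 and 120 h after transfection. They were chosen as the 7 miR-124 arrays among the 14 arrays of the series. The other 7 arrays, HepG2 cells transfected with a negative control and taken at the same times, served only for comparison. HepG2 is an established cell line from a human liver tumour. The labels name no dose, no sequence of the negative control and no cell density, and nothing in them says that arrays came from separate cultures. All 14 arrays therefore share the cell line and the fact of a transfection, and each transfection and time had 1 array. The 7 arrays were grouped into an early window (4 and 8 h), a middle window (16, 24 and 32 h) and a late window (72 and 120 h). The comparisons ask which messenger RNAs moved away from their early level within the miR-124 cells, in which order, and which came back by 120 h. Values are RMA levels on the log2 scale, so a difference of 1 is a 2-fold difference. Because RMA gives every array the same distribution, total messenger RNA per cell is not measured, and fewer cells of a state and less RNA per cell cannot be told apart in such bulk samples.

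miR-124 is a microRNA, a small RNA that guides Argonaute proteins to matching sites in messenger RNAs, which are then translated less and degraded sooner. It is abundant in neurons and scarce in liver, and its known targets include regulators of splicing, adhesion and the G1 phase of the cell cycle. A microRNA given by transfection is not renewed by the cell, and dividing cells dilute it. Direct targets can fall within hours, while genes further downstream, such as those that a cell expresses only when it divides, follow after the regulators above them have changed.

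The 6 hepatocyte markers on the array were all above the floor used for testing, a log2 level of 6.19, on all 7 arrays. ALB, the gene of serum albumin, lay between 13.65 and 13.87 and AFP, the fetal liver protein, between 13.49 and 13.71. Of the markers of other cells, 6 of 12 for fibroblasts and endothelium, 4 of 6 for blood and 2 of 7 for neurons were above that floor on all 7 arrays. Their medians ranged over the 7 arrays from 6.25 to 6.51, from 7.21 to 7.77 and from 5.47 to 6.04. PTPRC, CDH5, KDR and LUM, markers of blood, endothelium and fibroblasts, stayed below that floor. Other markers of the same lists did not. LYZ, of blood, lay between 12.45 and 12.73, PECAM1, of endothelium, between 8.01 and 8.85, and COL1A1, of fibroblasts, between 8.36 and 8.59. The neuron marker TUBB3 lay between 11.69 and 11.99.

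In its control probe sets the 4 h array differed from the rest. Its mean log2 signal was 11.05 for 18S ribosomal RNA and 8.06 for the poly-A spikes, against 7.6 to 8.28 and 5.99 to 6.44 on the other 6 miR-124 arrays. The 3′ minus 5′ probe set difference of ACTB, a sign of RNA length, ran from 0.351 to 0.561 in the miR-124 cells and from 0.102 to 0.348 in the control cells. Correlations between the 7 arrays over genes ran from 0.904 to 0.995. Counts of genes called late minus early are therefore also given without the 4 h array for the lists described here where that moves them by over 1.5 times.

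The distance of the arrays from the early level grew until 72 h and was smaller at 120 h. Over 13128 genes tested, the SD of the difference from the mean of 4 and 8 h was 0.23, 0.31, 0.35, 0.65 and 0.49 at 16, 24, 32, 72 and 120 h. In the control cells it was 0.17, 0.18, 0.17, 0.26 and 0.40. Between the 4 and 8 h arrays themselves the SD was 0.22 in miR-124 cells and 0.18 in control cells. The window means were compared in 1 limma fit over the 7 arrays, with p-values adjusted by Benjamini and Hochberg over all 13128 genes and called below 0.05. With 1 array a time, those p-values measure the spread between the times of a window, which mixes change with time and technical spread.

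By that test 76 genes differed between the middle and the early window, 18 lower (0.137% of the genes tested) and 58 higher (0.442%). Between the late and the early window 1869 genes were lower (14.2%) and 2155 higher (16.4%). Between the late and the middle window 895 were lower (6.82%) and 1144 higher (8.71%). The middle count rested on single arrays: it was 0 without the 4, 24 or 32 h array, 4 without the 8 h array, and 621 without either late array, when the gap between 72 and 120 h no longer entered the spread. With arrays centred on their own median it was 202, of which 118 were lower and 84 higher. The late minus early count was 1927 without the 4 h array (602 lower, 1325 higher), 2347 without the 8 h array and 2495 without the 72 h array. Without the 120 h array it was 4467, with 2386 lower and 2081 higher, and with centred arrays 2264 were lower and 1907 higher, so which direction was the more frequent turned with that array and with the centring. The late minus middle count was 1113 without the 16 h array, 835 without the 24 h array and 1097 without the 72 h array. In the control cells the late minus early test called 451 genes lower (3.44%) and 333 higher (2.54%), a total that ran from 54 to 3574 when 1 array was left out.

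At the earliest times more genes were low than high by a 2-fold count. A gene was counted as low or high at a time where its level lay at least 2-fold below or above its mean of 4 and 8 h, a count without a test since each time had 1 array. The 3 middle arrays had 39, 175 and 200 low genes. The late arrays had 840 at 72 h (6.40% of the genes tested) and 206 at 120 h (1.57%). High genes numbered 12, 34 and 84 in the middle window, 588 (4.48%) at 72 h and 490 (3.73%) at 120 h. Taken by the first time they passed 2-fold, 39, 137 and 61 genes were low first at 16, 24 and 32 h, 626 at 72 h and 6 at 120 h. For high genes those numbers were 12, 27, 58, 501 and 102. Up to 32 h, 237 genes had been low and 97 high, and at 120 h high genes were the more frequent. With a step of 1.5-fold the numbers up to 32 h were 711 and 616, and the test of the middle window called 18 genes lower and 58 higher, so an excess of low genes in that window rests on the 2-fold count.

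**Figure D1:**
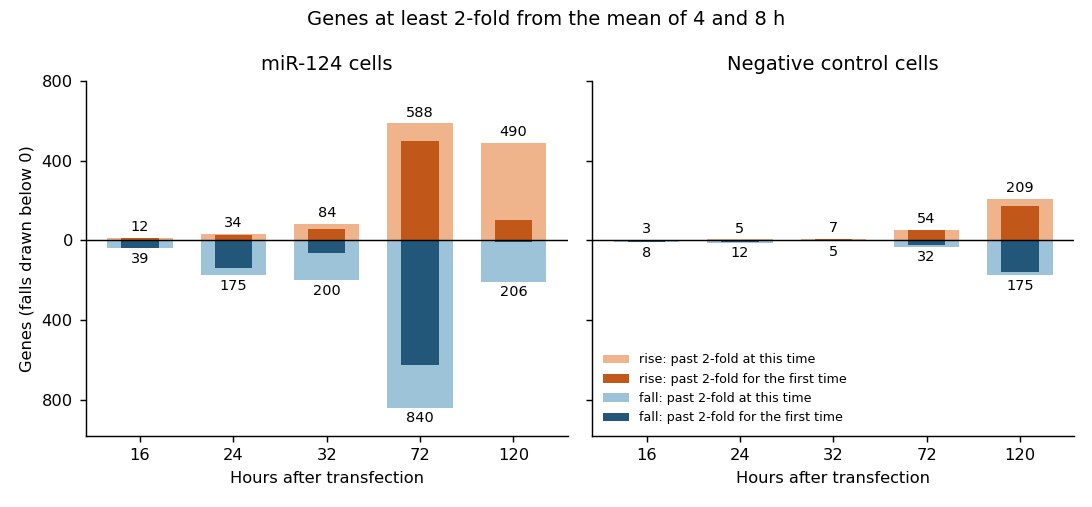
Number of genes at least 2-fold above (drawn upward) or below (drawn downward) the mean of 4 and 8 h at each later time, in miR-124 cells and in negative control cells; pale bars count genes past 2-fold at that time and dark bars those past it for the first time. In miR-124 cells the counts peak at 72 h with 840 low and 588 high genes, and at 120 h 206 are low and 490 high.

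The control cells moved later and less. There 8, 12, 5, 32 and 175 genes were low and 3, 5, 7, 54 and 209 were high at 16, 24, 32, 72 and 120 h. The 237 genes low by 32 h in miR-124 cells had medians of -0.70, -1.15, -1.23, -1.60 and -0.74 at the 5 later times. In the control cells the same genes had medians of -0.08, -0.11, -0.07, -0.13 and -0.25.

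Some genes already differed between the 4 and 8 h arrays. At 8 h 12 genes (0.0914% of the genes tested) were at least 2-fold lower than at 4 h and 14 (0.107%) at least 2-fold higher. In the control cells 5 (0.0381%) and 9 (0.0686%) were. Each time had 1 array, and the 4 h miR-124 array is the one whose control probe sets differed, so these differences may be partly technical, which was not tested. CD164, a sialomucin of endosomes and the cell surface, was 1.10 lower at 8 h than at 4 h on the log2 scale (a difference of -1.10), against -0.12 in the control cells. SUCLG2, a subunit of mitochondrial succinyl-CoA ligase, differed by -1.32 against -0.21. ANKRD1, a YAP and SRF target, was 2.29 higher at 8 h in miR-124 cells and 2.34 higher in control cells. For genes such as CD164 the early mean includes the lower 8 h level. That makes the measured fall smaller than one taken from 4 h alone and adds to the spread in the test.

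Of the 18 genes that fell by the middle window, the lowest was GPAT3, an enzyme of triglyceride synthesis. Its levels were 9.19, 8.77, 7.44, 6.91, 6.73, 6.50 and 7.36 from 4 to 120 h. All 3 middle arrays lay below both early ones, and GPAT3 was 3.88-fold lower (log2 difference -1.96 ± 0.29 (SE), limma adjusted p = 0.0438). TUBB6, a beta-tubulin, read 9.22 and 9.17 early, then 7.92, 7.77 and 7.58, and 7.95 and 8.42 late. It was 2.71-fold lower in the middle window (-1.44 ± 0.15, limma adjusted p = 0.0194).

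TEAD1, the DNA-binding partner of YAP in the Hippo pathway, fell and then turned back. Its levels were 9.31 and 9.18 early, 8.07, 7.67 and 7.76 in the middle window, and 8.34 and 8.85 late. The middle minus early difference was -1.41 ± 0.17 (limma adjusted p = 0.0279) and the late minus middle difference was 0.76 ± 0.17 (limma adjusted p = 0.0241). CDK6, the cyclin-dependent kinase that drives cells out of G1, stayed low instead. It read 10.74, 10.77, 9.65, 9.26, 9.59, 9.23 and 9.58, and both its middle (-1.25 ± 0.15, limma adjusted p = 0.0279) and late (-1.35 ± 0.16, limma adjusted p = 0.00131) differences from the early window were called. CDK6 was also 10.25, 10.10, 10.66, 10.13 and 10.25 in the control cells from 16 h on, below their 10.74 and 10.89 at 4 and 8 h.

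Also among the 10 lowest were SLC31A1, the copper importer, MAOB, a monoamine oxidase, MYADM, NR3C1, the glucocorticoid receptor, SMPDL3A, and CPT1A, which brings fatty acids into mitochondria. Their middle minus early differences ran from -1.13 to -0.98. CPT1A went on down, from 9.12 and 9.06 early to 8.24, 8.12 and 7.96 and then 7.70 and 7.76, and its late minus middle difference of -0.38 ± 0.10 was called (limma adjusted p = 0.0417). NR3C1 fell between the early and late windows in both arms: it read 9.74, 9.65, 8.70, 8.57, 8.84, 8.85 and 9.01 in miR-124 cells and 8.85 and 8.48 at 72 and 120 h in control cells. Of the 18 genes, 15 were also called lower late than early, 4 were called higher late than in the middle, and 1 was called lower still. Without the 4, 24 or 32 h array none of these 10 genes was called in the middle window, as no gene at all was.

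The 6 lowest middle minus early differences, those of LOX, CD164, ATP6V0E1, ACAA2, VAMP3 and SUCLG2, did not pass the test. LOX, which crosslinks collagen, read 9.85, 9.28, 7.94, 6.19, 6.12, 5.38 and 8.39. VAMP3, a vesicle SNARE and reported miR-124 target, read 11.18, 10.82, 9.36, 8.58, 8.62, 8.41 and 10.04, while its control levels stayed between 11.13 and 11.28. Its middle minus early difference was -2.15 ± 0.44 (limma adjusted p = 0.0671) and its late minus early difference -1.78 ± 0.48 (limma adjusted p = 0.0275). CD164 read 11.73, 10.63, 9.40, 8.65, 8.62, 8.34 and 10.39 (middle minus early -2.29 ± 0.58, limma adjusted p = 0.102). VAMP3 and CD164 were near their lowest level by 24 h, stayed there to 72 h and stood well above that level at 120 h, and the step from 72 to 120 h is part of the spread the test used.

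**Figure D2:**
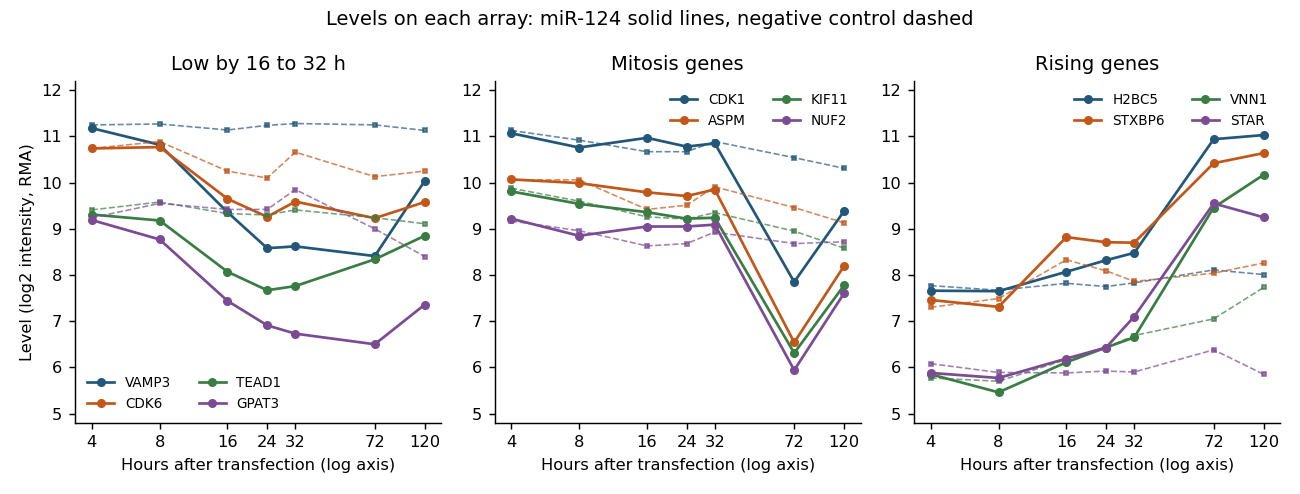
Log2 level of 12 genes on each of the 14 arrays against hours after transfection on a log axis, with miR-124 cells as solid and negative control cells as dashed lines. VAMP3, CDK6, TEAD1 and GPAT3 were low by 16 h, CDK1, ASPM, KIF11 and NUF2 dropped between 32 and 72 h, and H2BC5, STXBP6, VNN1 and STAR were highest at 72 or 120 h.

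Reported miR-124 targets were followed as a list. Of 34 such genes tested, 3 fell in the middle window (TEAD1, CDK6 and NR3C1) and 0 rose. Late against early, 16 fell and 1 rose, beside the 14.2% and 16.4% over all genes. Their median difference from the early mean was -0.45, -0.74, -0.82, -1.10 and -0.48 at 16, 24, 32, 72 and 120 h, where the median of all genes lay between -0.04 and 0.03. In the control cells the list's median lay between -0.04 and 0.04. A total of 14 of the 34 were low by 32 h and 19 were low at 72 h. The list was written with results of these arrays known, and 4 members (CD164, ACAA2, SUCLG2 and ATP6V0E1) were included with their changes known, so it is no independent evidence of direction. Without those 4 the medians were -0.39, -0.67, -0.69, -1.01 and -0.43, and 15 of 30 fell late. Without the 4 h array 6 of 34 fell late and 1 rose, without the 72 h array 6 fell and 2 rose, and without the 120 h array 26 fell and 2 rose.

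PTBP1, the splicing repressor that miR-124 lowers in developing neurons, read 11.76, 11.68, 10.86, 10.34, 10.32, 9.57 and 10.90. It fell late against early (-1.48 ± 0.38, limma adjusted p = 0.0225). PTBP2, its neuronal paralogue, moved the other way, with levels of 7.77, 7.44, 8.27, 8.55, 9.22, 9.50 and 9.45, and rose late (1.87 ± 0.28, limma adjusted p = 0.00278). The other probe set of PTBP1 showed almost no change, with a late difference of -0.13. IQGAP1, an actin scaffold, read 9.0, 8.48, 7.11, 6.78, 6.60, 6.90 and 7.99 and fell late (-1.30 ± 0.34, limma adjusted p = 0.0244). PTBP1 was lowest at 72 h and IQGAP1 at 32 h, so targets did not share 1 time of lowest level.

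The genes first low at 24 h included MAGT1, a magnesium transporter and oligosaccharyltransferase subunit, LRRC58, and TSN, the nucleic-acid-binding protein translin. MAGT1 read 11, 10.76, 9.92, 8.84, 8.61, 8.23 and 9.88 and fell late (-1.83 ± 0.56, limma adjusted p = 0.0412). Those first low at 32 h were led by CASP6, an effector caspase, HEATR5A, and DTL, a substrate receptor of a ubiquitin ligase that acts in S phase. CASP6 read 8.78, 8.52, 8.25, 7.75, 7.07, 6.95 and 7.89 and fell late (-1.23 ± 0.40, limma adjusted p = 0.0499). ACAA2, the last enzyme of mitochondrial fatty acid oxidation, was among the first at 16 h, with levels of 10.47, 9.62, 8.23, 7.69, 7.48, 7.65 and 9.03. Its late fall was -1.70 ± 0.46 (limma adjusted p = 0.0273), but its other probe sets barely moved, with late differences of -0.13 and -0.31. Control levels of MAGT1 stayed between 10.87 and 11.29 and those of ACAA2 between 10.38 and 10.62.

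Some genes low at 16 h followed the same course in the control cells. CYP1A1, the xenobiotic-inducible cytochrome P450, was the gene with the largest difference at 16 h. It read 10.73, 10.86, 8.22, 9.20, 11.19, 9.61 and 9.54 in miR-124 cells and 10.86, 10.84, 8.44, 9.26, 11.15, 9.05 and 9.06 in control cells. SOS1, a guanine nucleotide exchange factor of RAS, followed the same course, with 11.20, 11.10, 9.34, 9.61, 11.29, 9.22 and 9.02 against 11.40, 11.07, 9.29, 9.36, 11.12, 8.83 and 8.75. Both were low at 16 and 24 h, back at 32 h and low again late in both transfections. The late minus early change of CYP1A1 differed between the arms by 0.57 (limma adjusted p = 0.0294), and that of SOS1 by 0.41 (limma adjusted p = 0.0857).

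The genes of mitosis fell together and late. All 40 of the list, which holds spindle, kinetochore, condensin and mitotic kinase genes, fell between the early and the late window. A total of 39 fell between the middle and the late window. Over all genes those shares were 14.2% and 6.82%. In the middle window 0 of 40 were called. Their median difference was -0.31, -0.33 and -0.25 at 16, 24 and 32 h, -2.60 at 72 h and -1.45 at 120 h. In the control cells it was -0.48, -0.43, -0.24, -0.53 and -0.80. There 25 of 40 fell late, beside 3.44% of all genes. The late fall was larger in miR-124 cells by the test of the difference for 16 of 40 genes, where 434 genes (3.31%) were called lower and 1088 (8.29%) higher over all genes. Without the 4 h array 33 of the 40 fell late, and without the 72 h array 40 did.

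CDK1, the kinase that starts mitosis, read 11.07, 10.76, 10.97, 10.78, 10.85, 7.85 and 9.39. ASPM, a spindle pole protein, read 10.07, 9.99, 9.79, 9.71, 9.85, 6.54 and 8.20. KIF11, the kinesin that separates the spindle poles, read 9.81, 9.54, 9.36, 9.22, 9.24, 6.31 and 7.78. In each of the 3 genes the first 5 arrays lay together, the 72 h array far below them and the 120 h array between. Their late minus early differences were -2.30 ± 0.41 for CDK1 (limma adjusted p = 0.00575), -2.66 ± 0.43 for ASPM (limma adjusted p = 0.00389) and -2.63 ± 0.39 for KIF11 (limma adjusted p = 0.00282). Their control levels at 120 h were 10.31, 9.13 and 8.58, lower than at 4 h as well. For none of the 3 was the difference between the arms called, at -1.70, -1.90 and -1.65 (limma adjusted p = 0.053, 0.0541 and 0.0609). It was called for NUF2 and NDC80, among others. The other probe sets of CDK1 gave late differences of -1.90, -1.73 and -1.15.

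Promoters of these 3 genes are shown as examples, picked after their letters were seen because they hold both motifs. Genes expressed in G2 and M phase are known for a cell cycle homology region (CHR), bound by the DREAM and MuvB complexes, beside CCAAT boxes bound by NF-Y. The sequences are the 250 bases before the RefSeq start (GRCh38.p14), written 5′ to 3′ along the gene, with matches to TTTGAA (the CHR) and CCAAT, or their reverse complements TTCAAA and ATTGG, in capitals. CDK1 lies at chr10:60778081-60778330 on the plus strand, ASPM at chr1:197146670-197146919 on the minus strand and KIF11 at chr10:92592880-92593129 on the plus strand.
CDK1: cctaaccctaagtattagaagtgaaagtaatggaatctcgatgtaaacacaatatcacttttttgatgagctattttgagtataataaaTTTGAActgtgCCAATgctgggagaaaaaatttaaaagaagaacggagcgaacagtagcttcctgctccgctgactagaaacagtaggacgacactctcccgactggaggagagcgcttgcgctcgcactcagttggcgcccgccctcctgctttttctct
ASPM: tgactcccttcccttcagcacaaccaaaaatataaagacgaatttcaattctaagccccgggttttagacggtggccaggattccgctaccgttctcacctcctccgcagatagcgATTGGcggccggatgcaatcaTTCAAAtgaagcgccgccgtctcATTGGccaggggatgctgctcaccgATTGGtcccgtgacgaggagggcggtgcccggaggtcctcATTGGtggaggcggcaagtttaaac
KIF11: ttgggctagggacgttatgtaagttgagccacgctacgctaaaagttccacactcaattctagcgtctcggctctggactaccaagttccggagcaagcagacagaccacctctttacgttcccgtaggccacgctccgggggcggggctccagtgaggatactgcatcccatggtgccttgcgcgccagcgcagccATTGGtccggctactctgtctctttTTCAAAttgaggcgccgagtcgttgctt
CDK1 and KIF11 each hold 1 match to the CHR and 1 to CCAAT, and ASPM holds 1 and 4. The 250 bases before the start of CCNB1, cyclin B1, hold 0 and 2. With the 50 bases after the start included, NUF2 and NCAPG, also mitosis genes, each hold 1 and 0.

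Matches were counted in windows from 250 bases before to 50 bases after the start, on both strands, and neighbouring matches may overlap. Of the 34 mitosis genes with a promoter in the RefSeq table, 70.6% held the CHR letters and 79.4% held CCAAT. Over all 10538 genes tested that had a promoter the shares were 9.92% and 36.3%, and over all 27305 promoters listed they were 15.4% and 35.7%. The share with the CHR letters was 10.3% of 194 genes first low at 16, 24 or 32 h and 21.5% of 525 genes first low at 72 h. It was 8.31% of 397 genes first high at 72 h. A match describes these letters only and does not show that a factor binds. The mitosis list holds genes of the kind known for these elements, so its shares are no independent result.

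SPC25, NDC80 and NUF2, kinetochore proteins, NCAPG, a condensin subunit, CENPU, a centromere protein, and ANLN, which acts in cytokinesis, followed the course of CDK1. Among the genes called, SPC25 had the lowest late minus early difference after SERPINA3, described next. SPC25 read 9.37, 9.10, 8.98, 8.86, 8.65, 5.42 and 7.34 (-2.86 ± 0.51, limma adjusted p = 0.00557). NUF2 read 9.22, 8.85, 9.05, 9.05, 9.09, 5.94 and 7.61, so it showed no decline before 72 h (middle minus early 0.03 ± 0.40, limma adjusted p = 0.984). CDKN3, a phosphatase that acts on cyclin-dependent kinases, differed from the others in order: it read 10.39, 10.31, 9.20, 8.74, 8.52, 7.18 and 8.76 and was low by 16 h. SHCBP1, a midzone protein, had the largest late minus middle fall of all genes called (-2.53 ± 0.29, limma adjusted p = 0.00237), with levels of 9.91, 9.78, 10.22, 10.10, 10.01, 6.98 and 8.18.

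Genes of DNA replication and the G1/S step fell late as well. Of 37 tested, 35 fell late against early and 28 late against middle, beside 14.2% and 6.82% of all genes. Against the early window 0 were called in the middle window. Their median was 0.06, -0.17, -0.31, -1.82 and -0.87 at 16, 24, 32, 72 and 120 h, against -0.01, -0.11, -0.14, -0.23 and -0.68 in control cells. In control cells 4 of 37 fell late, beside 3.44% of all genes. The late change was called lower than in control for 6 of 37 and higher for 0, beside 3.31% and 8.29% of all genes. Without the 4 h array 11 of 37 fell late. MCM10, which loads replication factors at origins, read 9.38, 9.37, 9.20, 8.88, 8.41, 6.51 and 8.00 (late minus early -2.12 ± 0.44, limma adjusted p = 0.00993). HELLS, a chromatin remodeller of dividing cells, read 9.83, 9.41, 9.68, 9.20, 9.04, 6.27 and 8.05 (-2.46 ± 0.50, limma adjusted p = 0.00936). Both were lower at 24 and 32 h than at 4 and 8 h and lowest at 72 h, and their other probe sets gave smaller or similar late differences, from -2.08 to -1.11 for MCM10 and from -1.57 to -0.71 for HELLS.

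The lowest late minus early difference among the genes called belonged to SERPINA3, the acute phase protein antichymotrypsin. It read 12.09, 11.86, 11.16, 10.67, 10.36, 7.98 and 9.78 in miR-124 cells (-3.09 ± 0.51, limma adjusted p = 0.0042). In control cells it read 12.06, 11.90, 11.55, 11.27, 10.93, 11.13 and 13.08, so at 120 h the arms lay on opposite sides of their early levels. The difference of the late change between the arms was -3.22 (limma adjusted p = 0.000101). ORM1, another acute phase protein, fell from 12.48 and 12.72 to 10.38 and 10.80 (-2.01 ± 0.20, limma adjusted p = 0.000683).

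Secreted hepatocyte proteins did not move as 1 group. Of 28 tested, 4 fell late (SERPINA3, ORM1, HP and CP) and 6 rose, shares near the 14.2% and 16.4% of all genes, with a median of 0.05 and a mean of -0.19 for the late minus early difference. Without the 4 h array 2 fell and 2 rose, without the 72 h array 2 and 5, and without the 120 h array 8 and 3. Against control the late change was lower for 9 and higher for 0, beside 3.31% and 8.29% of all genes. In control cells 8 of the 28 rose late and 0 fell, beside 2.54% and 3.44% of all genes, with a median of 0.29. A lower change against control is therefore not by itself a fall in miR-124 cells. HP, haptoglobin, read 10.81, 10.60, 10.22, 9.53, 9.23, 7.92 and 9.64, while its control levels at 72 and 120 h were 11.20 and 11.12. CP, the copper carrier ceruloplasmin, read 9.58, 9.33, 8.90, 8.32, 7.95, 6.91 and 8.30 and had its highest control level, 11.68, at 120 h. Of 11 liver transcription factors 3 fell and 3 rose late. CEBPA, a factor of hepatocyte identity, read 10.34, 10.66, 10.13, 10.04, 9.62, 8.70 and 10.07, and its late difference of -1.11 ± 0.39 was not called (limma adjusted p = 0.0654).

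The 58 genes that rose by the middle window were still higher late. All 58 were also called higher late than early, 32 were called higher late than in the middle, and 0 were called lower late than in the middle. STXBP6, which binds SNARE proteins, had the largest middle difference of the 58 and read 7.46, 7.31, 8.82, 8.71, 8.70, 10.42 and 10.64. Its middle difference was 1.36 ± 0.10 (limma adjusted p = 0.0168) and its late difference 3.14 ± 0.11 (limma adjusted p = 5.52e-05), an 8.82-fold rise. In control cells STXBP6 read 8.33 at 16 h against 7.30 and 7.49 early, a difference just under 2-fold, and then lay between 7.86 and 8.26. Its other probe sets gave late differences of 1.5 and 1.46.

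ITGA2, a collagen-binding integrin, read 9.22, 9.61, 10.62, 10.69, 10.61, 11.41 and 11.26 and rose in both steps (middle minus early 1.23 ± 0.12, limma adjusted p = 0.0194; late minus middle 0.69 ± 0.12, limma adjusted p = 0.0101). KITLG, the ligand of the KIT receptor, read 7.5, 7.62, 8.36, 8.59, 8.70, 10.22 and 9.94, and its control levels stayed between 7.41 and 7.91. ANKRD46 read 8.09, 8.46, 9.34, 9.72, 9.77, 10.48 and 10.08. ZNF165, SLC17A2 and DOCK4, an exchange factor of RAC, were also among the 10 highest, with middle differences from 1.0 to 1.17. SLC17A2 also rose late in control cells (1.12, limma adjusted p = 0.0209), and the arms differed by 0.08 (limma adjusted p = 0.84). ITGA2 was 0.91 higher late in control cells (limma adjusted p = 0.0533), and the arms differed by 1.01 (limma adjusted p = 0.0238). For KITLG, ANKRD46, ZNF165 and DOCK4 the late change was called higher than in control. MAP3K20, ASPH and PABPC1L complete the 10, and their other probe sets disagree. The late difference was 1.42 for MAP3K20 but -0.76 and -0.74 in others, 1.25 for ASPH but -0.21 and -0.40, and 1.47 for PABPC1L but 0.00.

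The largest late rises were nearly all reached between 32 and 72 h. VNN1, a pantetheinase of liver and other epithelia, read 5.85, 5.46, 6.11, 6.43, 6.65, 9.46 and 10.17. It rose 17.9-fold late against early (4.16 ± 0.26, limma adjusted p = 0.000261). VNN1 was also higher late in control cells, at 7.05 and 7.73 against 5.77 and 5.70, and the late change differed between the arms by 2.5 (limma adjusted p = 0.000373). MAF, a bZIP transcription factor, read 5.43, 5.2, 5.69, 6.08, 6.66, 8.95 and 9.24 with control levels from 5.4 to 6.15.

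STAR, which carries cholesterol into mitochondria for steroid synthesis, read 5.88, 5.77, 6.19, 6.43, 7.10, 9.55 and 9.25 (3.57 ± 0.26, limma adjusted p = 0.000301). SULT1C2 and SULT1C4, neighbouring sulfotransferase genes of 1 family, both rose: SULT1C4 read 5.69, 5.61, 5.96, 6.18, 5.87, 9.11 and 8.75, so all its levels up to 32 h lay below the floor of 6.19, and SULT1C2 read 6.57, 6.05, 6.79, 7.49, 7.97, 9.90 and 9.80. EPB41L1, a membrane skeleton protein abundant in neurons, read 6.97, 6.96, 7.36, 7.95, 8.61, 10.66 and 10.31. Early levels of VNN1, MAF, STAR and SULT1C4 lay below that floor, near the background of the arrays, so the size of their rise and their rank are uncertain. MAF, STAR and SULT1C4 passed the filter on low values only through the late miR-124 arrays, so that they differ there is no independent result. Other probe sets gave late differences of 2.48 for VNN1 and of 2.66 and 0.03 for EPB41L1.

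Replication-dependent histone genes rose while replication genes fell. These genes normally give messenger RNAs without a poly-A tail in S phase, and arrays primed on poly-A tails read their tailed forms. All 8 tested rose late against early and late against middle, beside 16.4% and 8.71% of all genes. Against the early window 0 were called in the middle window. Their median was 0.06, 0.60, 0.97, 2.88 and 2.73 at the 5 later times, against 0.11, 0.12, 0.18, 0.41 and 0.30 in control cells. The median late difference of the 8 was 2.8 without the 4 h array, 2.73 without the 72 h array and 2.88 without the 120 h array. In control cells 3 of the 8 rose late, beside 2.54% of all genes. The late change was higher than in control for 7 and lower for 0, beside 8.29% and 3.31% of all genes. H2BC5 read 7.66, 7.65, 8.07, 8.32, 8.48, 10.94 and 11.03 (3.33 ± 0.14, limma adjusted p = 6.54e-05). H2BC21 read 6.52, 6.58, 7.0, 7.66, 7.94, 10.26 and 10.39 (3.78 ± 0.26, limma adjusted p = 0.000276). H2AC6 was already high at 24 h, with 7.69, 7.98, 8.32, 9.17, 9.56, 10.85 and 10.91. Histone genes are near-identical copies, and probe sets may read more than 1 of them; the other probe set of H2BC5 gave a late difference of 1.76.

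**Figure D3:**
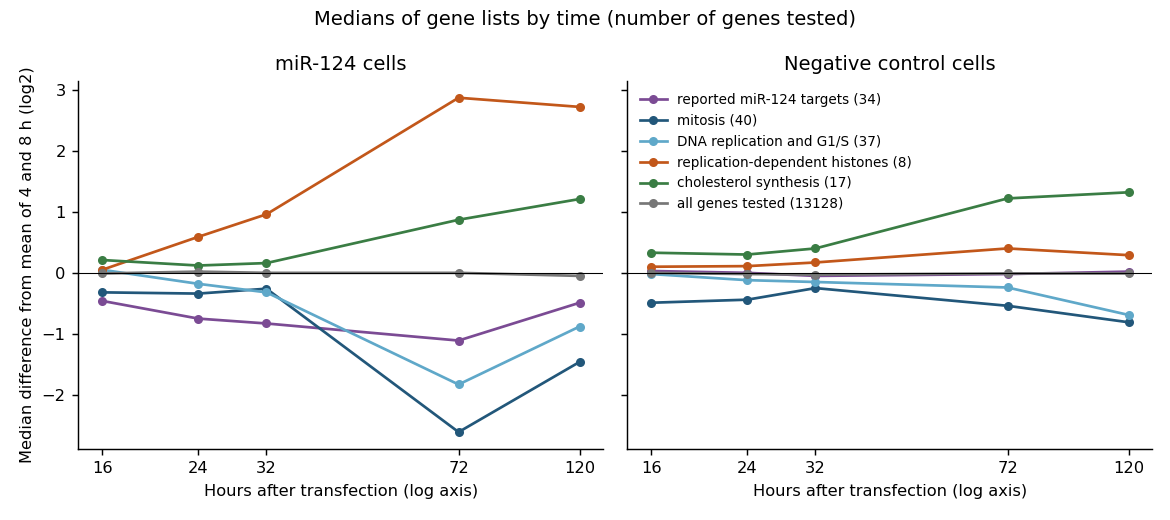
Median log2 difference from the mean of 4 and 8 h of 5 gene lists and of all genes tested, at 16, 24, 32, 72 and 120 h on a log axis, in miR-124 and negative control cells. Reported targets were at -0.82 by 32 h, mitosis genes dropped from -0.25 at 32 h to -2.60 at 72 h, and cholesterol synthesis genes were higher late in both arms.

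Some targets of p53, the transcription factor that halts the cell cycle after damage, rose late. Of 21 tested, 8 rose and 0 fell, beside 16.4% and 14.2% of all genes, with medians of 0.02, 0.35, 0.50, 0.59 and 0.42 at the 5 later times. The late change was higher than in control for 12 and lower for 0, beside 8.29% and 3.31% of all genes. In control cells 2 fell, beside 3.44% of all genes. GADD45A, which acts in growth arrest and repair, read 10.79, 10.71, 10.97, 11.26, 11.27, 11.90 and 11.70 (1.05 ± 0.13, limma adjusted p = 0.00153). TP53I3 read 9.03, 9.12, 9.05, 9.89, 10.34, 11.77 and 9.92, so it was highest at 72 h, and its late difference of 1.77 ± 0.58 was not called (limma adjusted p = 0.052). CDKN1A, the p21 inhibitor of cyclin-dependent kinases, stayed between 9.63 and 10.11 (late minus early 0.14 ± 0.16, limma adjusted p = 0.569). Of the 21, 4 rose without the 4 h array and 3 without the 72 h array.

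Of 21 genes of the lysosome and its proton pump, 14 rose late and 3 fell, beside 16.4% and 14.2% of all genes, with a median of 0.63. The counts were 8 and 1 without the 4 h array, and 9 and 1 without the 72 h array. In control cells 7 of the 21 rose late and 0 fell, beside 2.54% and 3.44% of all genes. The late change was higher than in control for 9 and lower for 2, beside 8.29% and 3.31% of all genes. HEXA, a lysosomal hexosaminidase, read 9.35, 9.32, 9.57, 9.89, 10.06, 11.09 and 10.88, but its other probe sets gave late differences of 0.05 and 0.42. CTSA, a protective carboxypeptidase, read 11.06, 11.07, 11.38, 11.65, 11.80, 12.44 and 12.52. ATP6V0E1, a subunit of the proton pump in the same list and a reported target, ran against them with 11.58, 10.84, 9.42, 8.88, 8.58, 8.60 and 10.43 (late minus early -1.69 ± 0.55, limma adjusted p = 0.0511). Outside that list TIMP2, an inhibitor of matrix metalloproteinases, rose from 8.89 and 9.23 to 11.57 and 12.02 (2.74 ± 0.25, limma adjusted p = 0.000601).

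Sterol genes were higher late in both arms. Of 17 cholesterol synthesis genes 14 rose late in miR-124 cells and 13 in control cells, beside 16.4% and 2.54% of all genes. Their medians were 0.88 and 1.22 at 72 and 120 h, against 1.23 and 1.33 in control cells. The late change was lower than in control for 3 and higher for 1, beside 3.31% and 8.29% of all genes. SQLE, squalene epoxidase, read 10.24, 10.20, 10.87, 10.64, 10.63, 11.46 and 11.76, and 10.42, 10.11, 10.87, 10.71, 10.75, 11.55 and 11.70 in control cells. HMGCS1, the first committed step, rose by 1.28 ± 0.20 (limma adjusted p = 0.00365) in miR-124 cells and by 2.01 in control cells (limma adjusted p = 0.00242), and the difference of -0.74 was called (limma adjusted p = 0.0189). Fatty acid synthesis went the same way, with 6 of 11 rising late in miR-124 cells and 7 of 11 in control cells.

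Of 18 fatty acid oxidation genes 6 fell late and 0 rose, beside 14.2% and 16.4% of all genes, among them CPT1A, ETFB, which passes electrons from acyl-CoA dehydrogenases, and HADH. ETFB read 12.04, 12.05, 11.84, 11.70, 11.55, 10.86 and 11 (-1.11 ± 0.12, limma adjusted p = 0.000868). Of the 18, 2 fell without the 4 h array and 3 without the 72 h array. Among 15 genes of hepatocyte metabolism 8 rose and 1 fell. CYP3A5, a drug-metabolising cytochrome P450, read 6.40, 6.09, 6.50, 7.05, 7.66, 9.05 and 9.16 (2.86 ± 0.32, limma adjusted p = 0.001), and BAAT, which conjugates bile acids, read 6.62, 6.99, 6.98, 7.23, 7.27, 8.78 and 8.57.

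Apart from splicing regulators, most genes of the following lists did not pass the test. Late against early, 11 of 24 splicing regulators fell and 2 rose (median -0.40), 8 of 26 genes of the ATF4 amino acid response fell and 4 rose (median -0.19), and 3 of 19 genes of the unfolded protein response fell and 1 rose (median -0.31). Of 21 hypoxia genes 7 rose and 1 fell (0.24), and of 17 interferon response genes 5 rose and 0 fell (0.09). For ribosomal proteins 3 of 16 fell and 0 rose (-0.13), and for oxidative phosphorylation 2 of 20 fell and 3 rose (0.07). Of 13 neuron genes 3 rose and 0 fell (-0.05). SNAP25, a neuronal SNARE that did not rise, stayed between 6.29 and 6.72 and does not stand for the 3 that did. Of 6 blood markers tested CD3D rose, with 7.12, 7.06, 7.32, 7.74, 7.79, 9.28 and 8.42 (1.76 ± 0.27, limma adjusted p = 0.00307), while PTPRC lay at or below 5.52 on every miR-124 array. Of 10 fibroblast and endothelial markers tested 1 rose, ACTA2. Of 12 housekeeping references YWHAZ rose and TFRC fell, though another probe set of TFRC has the opposite sign. The median over all 13128 genes was -0.02, with 14.2% lower and 16.4% higher. In control cells 5 of the 24 splicing regulators fell late, beside 3.44% of all genes, with a median of -0.27. The late change of splicing regulators was called lower than in control for 0 and higher for 1, beside 3.31% and 8.29% of all genes. Several of these counts rested on 1 array. Without the 4 h array 2 splicing regulators, 1 gene of the ATF4 response and 0 of the unfolded protein response fell, and without the 72 h array 4, 2 and 0 did. Without the 120 h array 9 genes of the unfolded protein response fell. No ribosomal protein gene fell without the 4 h or the 72 h array, and 5 fell without the 120 h array. Of the oxidative phosphorylation genes 0 fell and 0 rose without the 4 h array, and 3 interferon response genes rose.

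Between 72 and 120 h low genes moved back further than high ones. Of 863 genes low at any of 16, 24, 32 or 72 h, 172 (19.9%) lay within 0.5 log2 of the early mean at 120 h and were counted as returned. A further 200 (23.2%) were still at least 2-fold low, 488 (56.5%) lay between, and 3 had passed to the other side by more than 0.5. Of 598 high genes 20 (3.34%) had returned and 388 (64.9%) were still at least 2-fold high. With arrays centred on their median the returned shares were 10.3% and 6.13%, and with a band of 0.25 log2 they were 3.01% and 0.167%, so how many returned depends on the band and the centring. In control cells 39 genes had been low by 72 h, of which 6 had returned, and 62 had been high, of which 6 had.

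A choice of genes at 1 array favours extreme values there, so both choices are given. The 840 genes low at 72 h had a median of -1.42 there and -0.73 at 120 h. The 206 genes low at 120 h had a median of -1.23 there and -2.08 at 72 h. For the 588 genes high at 72 h the medians were 1.33 and 1.17, and for the 490 genes high at 120 h they were 1.33 at 120 h and 1.36 at 72 h. Low genes were thus nearer to the early level at 120 h by either choice, and high genes were at about the same level at both times. These medians come from single arrays and have no test.

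**Figure D4:**
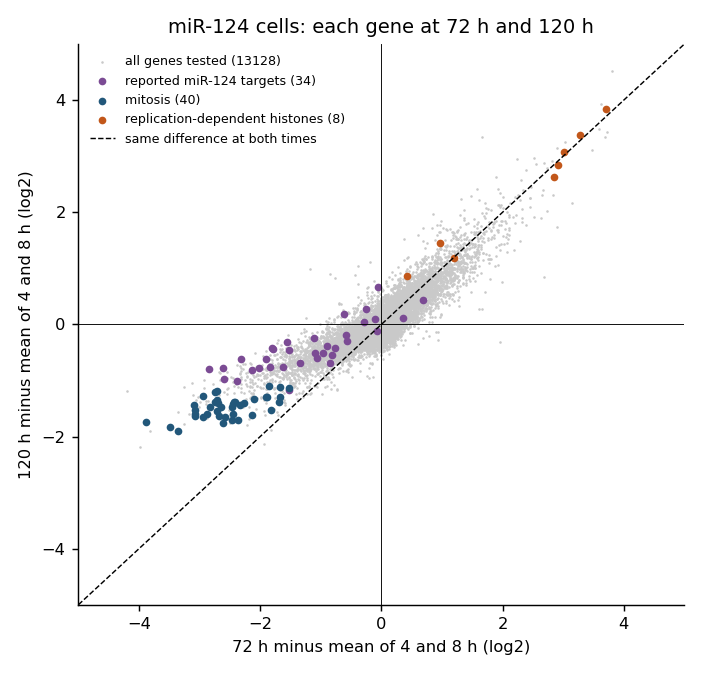
Difference from the mean of 4 and 8 h at 72 h (horizontal, log2) and at 120 h (vertical, log2) for each of 13128 genes in miR-124 cells, with 3 lists coloured; the dashed line marks equal differences. All 40 mitosis genes lie above the line, with medians of -2.60 at 72 h and -1.45 at 120 h, and the histone medians are 2.88 and 2.73.

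Genes that dropped at different times differed in how many were still low at 120 h. Of the 39 genes first low at 16 h, 34 were still low at 72 h and 14 (35.9%) at 120 h. Of 137 first low at 24 h, 127 were low at 72 h and 22 (16.1%) at 120 h, and of 61 first low at 32 h, 53 were low at 72 h and 5 (8.2%) at 120 h. Of the 626 first low at 72 h, 159 (25.4%) were low at 120 h. For genes first high at 16, 24, 32 and 72 h the shares still high at 120 h were 83.3%, 85.2%, 69.0% and 62.9%. These shares have no test.

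The state at 120 h is given next for single lists, with no test between them. Of the 19 targets low at 72 h, 5 had returned and 2 were still 2-fold low, beside 157 and 198 of the 840 genes low at 72 h, and 31 of all 34 were higher at 120 h than at 72 h. Of the 40 mitosis genes, all low at 72 h, 0 had returned and 40 were still 2-fold low, though all 40 were higher at 120 h than at 72 h. They made up 40 of the 198 genes low at both 72 and 120 h. Of the 28 replication genes low at 72 h 0 had returned and 14 were still low. The 6 histone genes high at 72 h were all still high. Over all genes 6663 of 13128 were higher at 120 h than at 72 h.

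Among genes that returned, the largest drops belonged to PEG3, an imprinted zinc finger gene, CDK4, a paralogue of CDK6, and CEBPA. PEG3 read 12.62, 12.26, 12.14, 11.61, 11.33, 10.53 and 11.96. CDK4 read 10.57, 9.65, 9.01, 8.70, 8.4, 8.32 and 9.69, so at 120 h it was back at its 8 h level and still below its 4 h level, with control levels from 10.65 to 11.06. E2F5, a repressor E2F, read 8.66, 8.35, 8.38, 7.91, 7.51, 6.80 and 8.24, and MPC1, a subunit of the mitochondrial pyruvate carrier, 10.16, 10.00, 9.85, 9.56, 9.27, 8.35 and 9.76. PUS1, KLHL14 and HPR complete the 8; HPR is a near copy of HP, so its probe set may read both. In all 8 the level at 120 h was more than 1 log2 above that at 72 h.

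Few high genes returned. ACTA1, skeletal alpha-actin, read 8.52, 9.46, 9.62, 9.85, 10.21, 10.95 and 8.68, and in control cells it declined from 9.39 at 8 h to 6.84 at 120 h. MT1E, a metallothionein, read 9.67, 10.12, 9.65, 10.39, 11.27, 11.51 and 10.16. DTNA, of the dystrophin complex, and CYLD, a deubiquitinase, were also among the 8, with 8.92 and 8.90 as their highest levels and 8.00 and 8.10 at 120 h. DTNA and LRRN4 were highest at 32 h and already lower at 72 h, and the other 6 of the 8 were highest at 72 h. CYLD has another probe set whose late difference has the opposite sign.

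Few genes first passed 2-fold at 120 h on the way down. RBM3, a cold-inducible RNA-binding protein, read 10.58, 10.47, 10.44, 10.22, 10.56, 9.54 and 9.28 (late minus early -1.11 ± 0.14, limma adjusted p = 0.00153), and AGO2, the Argonaute that cleaves targets, read 7.64, 7.55, 6.94, 7.10, 7.38, 6.86 and 6.44. PLAC8 was the next of the 6. The 102 genes first high at 120 h were led by ACSM3, an acyl-CoA synthetase, with 7.03 and 8.15 at 72 and 120 h against 6.31 and 6.05 early. TGFB1I1, a focal adhesion protein, read 7.41 and 8.26 against 6.14 and 6.70, and SMAD3-DT 7.78 and 8.64 against 7.02 and 6.70. In control cells at 120 h they lay 1.30, 0.87 and 0.87 above their early means, so ACSM3 alone passed 2-fold there.

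The change with time was set against that of the control cells in a test of the difference of the 2 changes, with the arrays of each time as a pair. For the middle window 0 genes were called with limma (1251 at an unadjusted p below 0.05), and 264 were called when either late pair was left out. For the late window the 1522 genes called ran from 203 without the 4 h pair and 259 without the 8 h pair to 732 without the 24 h pair and 3720 without the 120 h pair. With arrays centred on their medians 704 were lower and 859 higher, in place of 434 and 1088. Of the 1869 genes that fell late in miR-124 cells, 280 were called lower than in control and 245 fell in control cells by themselves. Of the 2155 that rose, 901 were called higher than in control and 213 rose in control cells.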

How the data were processed

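The 7 miR-124 arrays and 7 control arrays hold log2 expression values per probe set, made by the authors with RMA, per the submitters' processing notes, which name no version. Values between 2.93 and 14.4 show the log2 scale. Total RNA was labelled with biotin, per the labels' protocols. Of 54675 probe sets, 41091 had 1 gene symbol in the platform annotation, 1801 several, 11721 none, and 62 were controls. Each of 19775 genes was read from 1 probe set, that of highest mean on the 14 arrays, and 13128 genes with a mean above 6.19, the median of all probe sets, were tested. Arrays have no depth, and their number limits the precision.

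Window means were compared with limma 3.58.1 in R 4.3.3 (lmFit and eBayes, two-sided, adjusted p under 0.05), within each arm (4 residual degrees of freedom) and on the 7 differences between arms, with time as the block. Errors given as ± are standard errors of that fit. Low, high and returned genes were counted without a test. The fit was tested on simulated data.

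Genes were named by a rule: the 10 lowest and 10 highest called of middle and of late minus early, 5 each of late minus middle, 3 per first time and direction, 8 returned each way, and 4 per list with the largest change, with any target, mitosis or secreted protein gene free to be named; CDKN1A, HMGCS1 and some cell type markers were named besides, after their values were seen. The 31 lists (696 genes, 567 tested), the members and the tests were chosen with earlier results of these data known. Of 181 genes the rule named, 94 had other probe sets tested; in 13 one of these had the opposite sign late minus early, and in 23 one lay at least 1 log2 away. Promoters are RefSeq's (GRCh38.p14). Tables and figures were made with pandas 2.3.3 and matplotlib 3.10.9 in Python 3.11.15.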

Additional observations from a re-analysis of the deposited data

Results flagged for a closer look

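The late minus early change differed between miR-124 and control cells for 1522 genes, and the late minus middle change for 622, both by limma's test of the difference. A total of 25 genes were called late minus early in opposite directions in the arms. They included HP (-1.93 in miR-124 cells, 0.49 in control cells), PTBP2 (1.87 and -0.56), COL4A6, a basement membrane collagen (1.94 and -0.65), BIK, a pro-apoptotic BCL2 family member (1.38 and -0.47), and RRAGC, a RAG GTPase of nutrient sensing (0.82 and -0.71). COL4A6 and RRAGC were chosen after their values were seen. Outside the genes tested, the 18S ribosomal RNA probe sets of the 4 h miR-124 array had a mean log2 signal of 11.05, against 8.70 on the control array of that time. No group held 4 or more arrays, so single arrays could not be tested as outliers.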

How the results depend on the processing

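Leaving out 1 array gave 0 to 621 genes for middle minus early, 1927 to 4467 for late minus early, 835 to 2613 for late minus middle, and 54 to 3574 for the control cells. For the differences between arms it gave 0 to 264 (middle) and 203 to 3720 (late). Using every probe set gave 224, 6712 and 3251 for the 3 comparisons and 2332 for the late difference between arms. A 1.5-fold minimum gave 0, 366, 97 and 74. Centred arrays gave 202 for the middle, and 6 group means on all 14 arrays gave 829. Without the time block the late difference between arms had 1334 genes and the middle 0, so the pairing changed neither count by more than 1.5 times. The 20 middle, 20 late and 10 late minus middle genes named by size kept their direction when an array was left out, with centred arrays and with a trended, robust prior; the middle calls were lost as described above, and 18 of 20 late calls held without the 4 h array. Other probe sets were not among those settings, and 13 named genes have one of opposite sign. With steps of 1.5-fold and 3-fold, 711 and 49 genes were low first by 32 h, 1161 and 269 first at 72 h, 616 and 7 high first by 32 h, and 1012 and 151 first at 72 h. With every probe set these were 423, 1004, 174 and 859. Low genes returned by 120 h in 47.6% (1.5-fold), 3.46% (3-fold), 10.3% (centred), 3.01% (within 0.25 log2) and 5.33% (under 0.25 of the largest difference), and were still low in 39.2% and 9.43% (1.5-fold and 3-fold). High genes returned in 22.1%, 1.90%, 6.13%, 0.167% and 0.669% under the same settings, and in 8.25% without 72 h among the earlier times. The cause of these moves was not tested, other than that smaller steps and wider bands admit more genes. Signal near the background limits folds of genes with early levels below 6.19. No time had a replicate, and no setting can supply one.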
